A study of Oncorhynchus mykiss with 30 samples.

Results

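The hatching enzyme gene he2, the RNA-editing gene ADAR and the cytochrome P450 gene cyp2m1 were followed in the gonads of rainbow trout fry exposed to 17α-ethynylestradiol (EE2), a synthetic oestrogen. They are measured by 3 of the 60195 probes of the array, he2 by TC113380, ADAR by CUST_26298_PI425536763 and cyp2m1 by TC96342. The genes were selected on their fall against the control at the lower pair of concentrations, for which the study lists them among the genes that EE2 lowered strongly. The array files do not name these genes. The names come from the study's list, and each was assigned to a probe through its differences from the control in these same contrasts, so that the identity of the probes rests on that match.

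All fry came from an all-male population and received either the solvent alone (control) or a nominal 0.01, 0.1, 1 or 10 μg EE2/L for 76 days. Exposure began with first feeding, when the fry were 60 days old counted from fertilisation, and the gonads were taken at an age of 136 days. Per the study, EE2 measured in the water averaged 0.08 ± 0.06, 1.62 ± 1.74 and 9.88 ± 5.06 μg/L (SD) in the 3 higher groups. It lay below the detection limit of 0.02 μg/L in the group at 0.01 μg EE2/L. Each group had 3 tanks with 2 pools per tank, each pool joined the gonads of 10 fish, and each of the 30 pools was hybridised to its own single-colour Agilent array, 6 per group. A pool averages over its fish and the 2 pools of a tank share their water. The labels call the tissue testis. A symbol search covered 80 genes, listed as markers of testis, ovary, germ cells and other cells or as relatives of the 3 genes. No probe name in the files equals such a symbol, and most names seen are sequence identifiers, so that a match was unlikely. The study reports some of these markers, such as dmrt1, vtg and FOXL2, from this array. The label was not checked against defining markers here. Earlier histology that the study summarises found only testes in the control. Testes containing oocytes were frequent in both groups of lowest exposure, and from 0.1 μg EE2/L upwards no gonad was classed as normal testis. A further class, testes of altered form, held some of the gonads at 0.01, 0.1 and 1 μg EE2/L. At 0.01 μg EE2/L some gonads were still classed as normal testis and a few resembled ovaries. Gonads resembling ovaries were a larger share, though not most, at 0.1 μg EE2/L. Most gonads at 1 μg EE2/L and all at 10 μg EE2/L resembled ovaries. The label testis thus does not describe most gonads of the groups at 1 and 10 μg EE2/L. Because whole gonads were extracted, fewer cells of a type and less RNA per cell cannot be told apart in any of the values below.

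The protein of he2 belongs to the hatching enzymes, astacin-type metalloproteases that digest the egg envelope when fish embryos hatch. ADAR enzymes bind double-stranded RNA and convert adenosine to inosine, which the translation and splicing machinery reads as guanosine. CYP2M1 is a trout member of the cytochrome P450 superfamily of haem monooxygenases and hydroxylates lauric acid, a fatty acid.

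A pair of the 30 arrays had a dim middle. Between 75.6% and 88.2% of the probes of an array were marked by the authors' image software as well above background, and no spot was saturated. On control replicate 4 and on replicate 1 of 0.1 μg EE2/L, the share of central probes (4 of 16 blocks) whose log2 signal was more than 2 below their group's median was 19.4% and 19.6%. It was at most 0.838% on the other 28 arrays. None of the 3 spots lies in that middle. The median of the spots around them deviated from that of their group by between -0.10 and 0.31 on the log2 scale, the highest values being those of replicate 1 of 0.1 μg EE2/L. In the deposited table of log2 values, 6 of the 30 columns match the scanner array of another pool better than their own. They form 3 exchanged pairs, each within 1 concentration, so that the comparisons of concentrations keep their samples, whereas the tank of these pools is uncertain.

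he2 had the widest range of the 3 genes. In the control, its normalised signal (log2 of the processed spot signal after quantile normalisation) ranged from 12.12 to 13.68 with a median of 12.86. At 0.01 μg EE2/L it ranged from 8.39 to 9.55 with a median of 9.33. At 0.1 μg EE2/L it ranged from 2.84 to 6.00 with a median of 5.44. All arrays at 0.01 μg EE2/L and at 0.1 μg EE2/L thus lay below all 6 control arrays, and these exposed groups did not overlap each other either. At 1 μg EE2/L the signal ranged from 1.99 to 3.26 (median 2.47), and at 10 μg EE2/L from 1.77 to 4.12 (median 2.47). The groups at 1 and 10 μg EE2/L overlapped each other, and both also overlapped the group at 0.1 μg EE2/L.

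**Figure D1:**
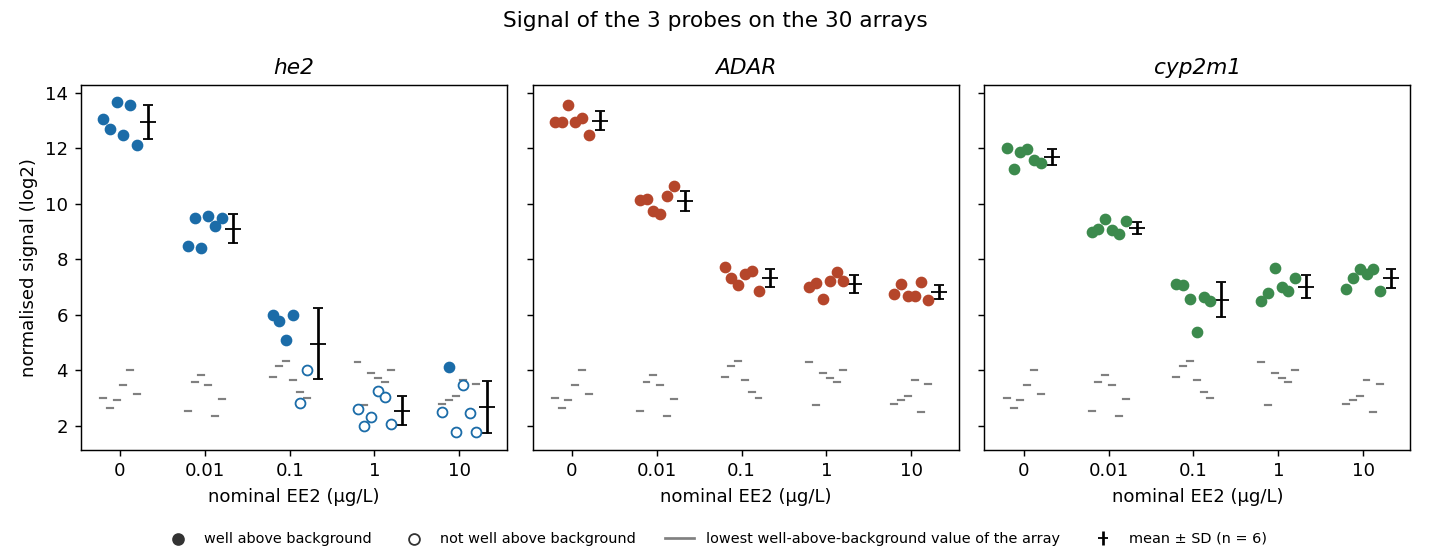
Normalised signal (log2) of he2, ADAR and cyp2m1 against the nominal EE2 concentration. Each point is 1 array, filled where the probe was well above background and open where it was not, grey ticks mark the lowest value well above background on that array, and black bars give the mean ± SD of 6 arrays. For he2 all 6 points at 1 μg EE2/L are open, while ADAR and cyp2m1 are filled throughout.

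The mean signal of he2 was 12.93 ± 0.62 in the control (SD, n = 6), 9.09 ± 0.52 at 0.01, 4.95 ± 1.28 at 0.1, 2.55 ± 0.51 at 1 and 2.68 ± 0.94 at 10 μg EE2/L. The difference from the control was -3.83 ± 0.46 at 0.01 μg EE2/L (log2, SE of the limma fit), 14.2-fold lower, and -7.97 ± 0.46 at 0.1 μg EE2/L, 251-fold lower. These are the contrasts that chose the gene and are given as a description. Only 4 of 6 arrays at 0.1 μg EE2/L measured he2 well above background, so that its fold there includes values near the background. With each array's signals raised to its lowest value well above background, the difference at 0.1 μg EE2/L was -7.90. This floor could change little, since it moved he2 only on replicate 5 of that group, from 2.84 to 3.24. In both contrasts every exposed array lay below every control array, which was so for 3.42% and 5.64% of all probes. Ordered from the lowest difference upwards, he2 was at rank 2 of all probes at 0.01 μg EE2/L and at rank 1 at 0.1 μg EE2/L.

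At the higher concentrations the he2 signal reached the background of the array. It was well above background on 6 of 6 arrays in the control and at 0.01 μg EE2/L, on 4 of 6 at 0.1, on 0 of 6 at 1 and on 1 of 6 at 10 μg EE2/L. A fold change against 1 μg EE2/L is therefore a bound, for which the mean of the dim group is taken over the lowest normalised signal among probes well above background on each array. Against this bound he2 was at least 596-fold lower at 1 μg EE2/L than in the control, with measured means of 2.55 and 12.93. At 10 μg EE2/L 5 of the 6 exposed arrays did not measure he2 well above background. The difference from the control there was -10.25 on the log2 scale as measured and -9.65 with each array's signals raised to its lowest value well above background. With another background correction (normexp with an offset of 50), the differences of he2 were smaller, -6.33 at 0.1, -6.82 at 1 and -6.77 at 10 μg EE2/L, so that the bound holds for the processed signal and not for that correction. The percentages of all probes whose 6 exposed arrays lay below all controls were 11.6% at 1 and 10.5% at 10 μg EE2/L, in contrasts that share their controls with those that chose the gene.

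The spot itself, before normalisation, shows where the floor lies. The processed signal, an intensity in arbitrary units, was between 2537 and 9789 in the control (median 8016) and between 247 and 936 at 0.01 μg EE2/L (median 635). At 0.1 μg EE2/L it was between 7.92 and 54.4 (median 36.5). At 1 μg EE2/L it was between 2.76 and 8.08 (median 4.48), and at 10 μg EE2/L between 3.09 and 25.0 (median 6.91). By comparison, the lowest signal well above background on an array was between 8.97 and 22.7, and the median of the 308 negative control spots between 2.33 and 5.28. The spot exceeded the 95th percentile of the negative controls of its own array on 6 of 6 arrays in each group up to 0.1 μg EE2/L, on 3 of 6 at 1 and on 4 of 6 at 10 μg EE2/L. The error that the image software assigned to the spot was close to 10.0% of the signal in the control and between 40.6% and 100% at 1 μg EE2/L. The raw median intensity of the spot was still 36.5 to 46.0 at 1 μg EE2/L, against 26.5 to 39.0 for the local background.

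**Figure D2:**
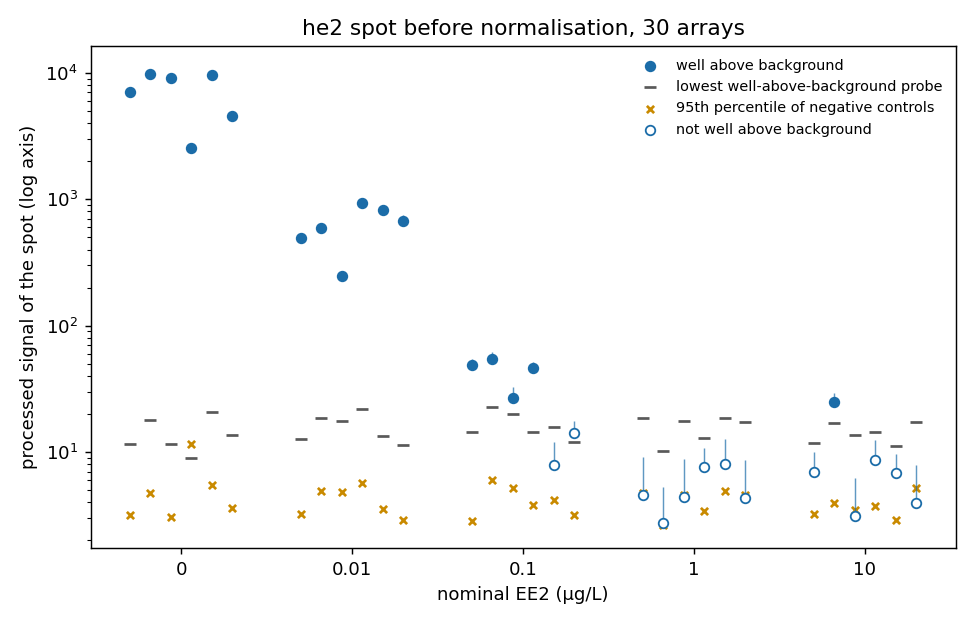
Processed signal of the he2 spot on each of the 30 arrays before normalisation (log axis) against the nominal EE2 concentration, with bars going up by the error that the image software gave. Filled points were well above background and open points were not, dashes mark the lowest probe well above background on the same array and crosses the 95th percentile of the negative controls. At 1 μg EE2/L the 6 spots lie between 2.76 and 8.08, all below the dash of their array.

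The pools at 0.1 μg EE2/L were the most unequal for he2. The pools of tank 1 had a signal of 5.99 and 5.78, those of tank 2 of 5.11 and 6.00, and those of tank 3 of 2.84 and 4.02. The pair not well above background was that of tank 3, and its mean of 3.43 stood apart from 5.55 and 5.88 in the other tanks. One of these pools, replicate 6, forms with replicate 1 a pair whose columns are exchanged in the deposited table. By those columns the 4.02 would lie in tank 1 and the 5.99 in tank 3. Tank 3 would then hold 2.84 and 5.99, so that its standing apart depends on the labels of the scanner arrays. At 10 μg EE2/L, the array well above background was replicate 2, with 4.12, and the other 5 arrays were between 1.77 and 3.46.

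Among the control arrays, he2 was lowest on replicates 6, 4 and 2, with 12.12, 12.47 and 12.68. Across all probes, replicate 6 correlated on average at 0.975 with the 0.01 μg EE2/L arrays and at 0.952 with its fellow controls, and replicate 2 at 0.973 and 0.957. The other 4 controls were closer to the controls. Whether this similarity has a part in the spread of he2 was not tested. With each array left out in turn, the difference of he2 at 0.01 μg EE2/L stayed between -3.99 and -3.68.

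ADAR fell in large steps and remained measurable throughout. In the control its normalised signal ranged from 12.47 to 13.56 (median 12.95), at 0.01 μg EE2/L from 9.64 to 10.64 (median 10.15) and at 0.1 μg EE2/L from 6.84 to 7.73 (median 7.39). At 1 μg EE2/L it ranged from 6.55 to 7.53 (median 7.17) and at 10 μg EE2/L from 6.55 to 7.16 (median 6.72). The control group, that at 0.01 μg EE2/L and that at 0.1 μg EE2/L were separate from each other, and the 3 highest concentrations overlapped. The ADAR spot was well above background on all 30 arrays, with a processed signal of at least 81.8.

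The means of ADAR were 12.99 ± 0.35 in the control (SD, n = 6), 10.10 ± 0.37 at 0.01, 7.33 ± 0.33 at 0.1, 7.11 ± 0.32 at 1 and 6.82 ± 0.25 at 10 μg EE2/L. Its differences from the control, each ± 0.19 (log2, SE), were -2.89, -5.65, -5.88 and -6.17 in order of concentration, or 7.41-fold, 50.3-fold, 58.9-fold and 71.9-fold lower. The means followed the order of the concentrations. The neighbouring groups at 0.1 and 1 μg EE2/L overlapped, as did those at 1 and 10 μg EE2/L. All exposed arrays lay below all control arrays in each contrast, as for 3.42%, 5.64%, 11.6% and 10.5% of all probes. These contrasts chose the gene or share their controls with those that did. From the lowest difference upwards ADAR was at rank 9, 13, 26 and 25 of all probes. With the normexp correction its difference at 10 μg EE2/L was -5.55.

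cyp2m1 fell least and had its lowest mean at 0.1 μg EE2/L. Its normalised signal ranged from 11.26 to 11.99 in the control (median 11.71) and from 8.91 to 9.43 at 0.01 μg EE2/L (median 9.07). It ranged from 5.38 to 7.10 at 0.1 μg EE2/L (median 6.60), from 6.48 to 7.67 at 1 (median 6.93) and from 6.84 to 7.66 at 10 μg EE2/L (median 7.40). The 3 highest concentrations overlapped, while the control and 0.01 μg EE2/L groups were separate from all others. Of all probes, 8.73% had every array at 1 μg EE2/L below every array at 0.01 μg EE2/L. For 10 against 0.01 μg EE2/L the share was 7.86%. The spot was well above background on all 30 arrays, with a processed signal of at least 31.3.

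The means of cyp2m1 were 11.68 ± 0.29 in the control (SD, n = 6), 9.13 ± 0.22 at 0.01, 6.54 ± 0.63 at 0.1, 7.01 ± 0.42 at 1 and 7.31 ± 0.35 at 10 μg EE2/L. Its differences from the control, each ± 0.23 (log2, SE), were -2.55, -5.14, -4.67 and -4.37, or 5.84-fold, 35.4-fold, 25.4-fold and 20.7-fold lower. Every exposed array lay below every control array in each contrast, as for 3.42%, 5.64%, 11.6% and 10.5% of all probes. As for ADAR, these contrasts chose the gene or share their controls with those that did. From the lowest difference upwards the probe was at rank 19, 24, 72 and 103. With the normexp correction the differences were -4.40 at 0.1 and -4.07 at 1 μg EE2/L. The lowest array of the gene was replicate 4 of 0.1 μg EE2/L with 5.38, while the other 5 arrays of that group were at 6.48 or above. Without that array the difference from the control at 0.1 μg EE2/L was -4.91, against -4.67 at 1 μg EE2/L. Part of the low point at 0.1 μg EE2/L thus rests on this array, and the order of these groups was not tested.

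**Figure D3:**
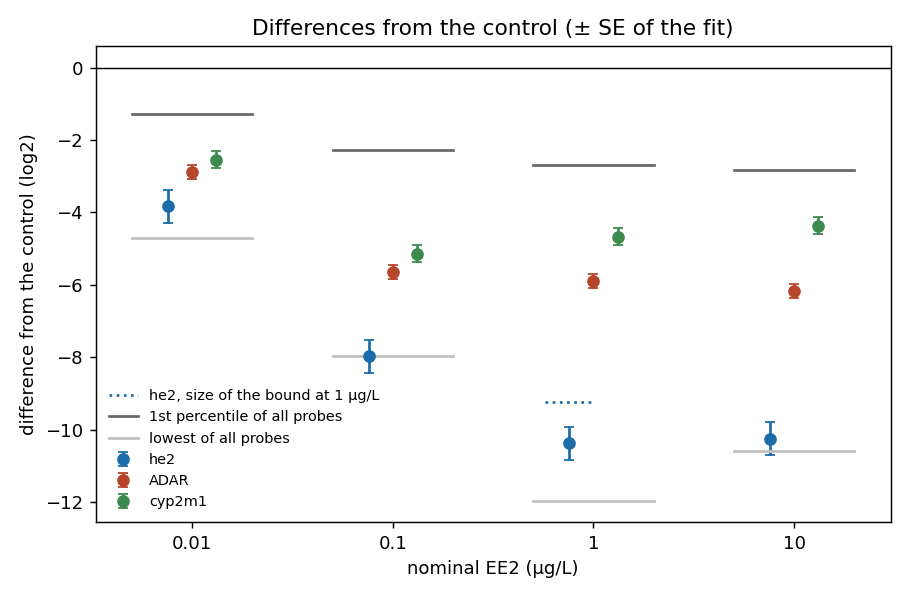
Difference of each gene from the control (log2) at the 4 EE2 concentrations, with the SE of the limma fit over all 30 arrays. Dark lines give the 1st percentile and light lines the lowest difference of all 60195 probes, and the dotted line the size of the bound for he2 at 1 μg EE2/L. All 3 genes lie below the 1st percentile in each contrast, and cyp2m1 is lowest at 0.1 μg EE2/L.

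Without both arrays with a dim middle, the differences at 0.1 μg EE2/L were -8.27 for he2, -5.74 for ADAR and -5.20 for cyp2m1, and at 0.01 μg EE2/L they were -3.92, -2.90 and -2.49.

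The signal was also set side by side between neighbouring concentrations. From 0.01 to 0.1 μg EE2/L, the signal differed by -4.14 for he2, -2.76 for ADAR and -2.60 for cyp2m1 on the log2 scale, with no overlap between the groups, which was so for 2.89% of all probes in this direction. From 0.1 to 1 μg EE2/L he2 differed by -2.40, with 4 of 6 arrays below all those at 0.1 μg EE2/L. No fold is given for this step, since he2 was not well above background on any array at 1 μg EE2/L and was so on only 4 of 6 at 0.1 μg EE2/L. ADAR differed by -0.23 and cyp2m1 by 0.48 over the same step, and both overlapped. These steps use the arrays that chose the genes and were not tested.

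The comparison of 10 with 1 μg EE2/L was not itself used to choose the genes and was tested. Its arrays were not wholly outside the choice, since the study's list holds genes that also differed from the control at 1 or 10 μg EE2/L. he2 differed by 0.13 (95% interval -0.81 to 1.07), ADAR by -0.29 (-0.68 to 0.11) and cyp2m1 by 0.30 (-0.18 to 0.77) on the log2 scale, higher values meaning a higher signal at 10 μg EE2/L. None passed the threshold, with an adjusted p of 0.999972 for each in limma with Benjamini-Hochberg adjustment. The unadjusted p from the same fit over 60195 probes were 0.78 for he2, 0.15 for ADAR and 0.22 for cyp2m1. Over all probes 2 passed, 0.00332% of those tested, and 2887 had an unadjusted p below 0.05. For he2 the interval describes values at or near the background. Only 1 of 6 arrays at 10 and 0 of 6 at 1 μg EE2/L measured the gene well above background. Its spot exceeded the 95th percentile of the negative controls on 4 of 6 and 3 of 6 of these arrays. Within the 4 slides the difference changed sign for each gene, from -1.49 to 1.78 for he2, from -0.59 to 0.15 for ADAR and from -0.46 to 0.85 for cyp2m1.

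Pools were also compared between tanks of the same concentration and between slides, neither of which entered the choice. An F test for differences between tanks in limma gave an adjusted p of 0.759 for he2, 0.822 for ADAR and 0.785 for cyp2m1, while 6 of all probes passed and 4180 had an unadjusted p below 0.05. In simulated data this test found 149 of 200 probes that were raised by 4 on the log2 scale in 1 control tank, with 12 false calls. Smaller differences may therefore go unseen, and other patterns between tanks were not simulated. The raised probes were simulated together, so that a difference in a single gene may be found less readily. The test took the tanks from the labels of the scanner arrays, and the tank of 6 of the 30 pools is uncertain. Between slides the adjusted p was 0.930, 0.838 and 0.931, with 55 of all probes passing. Within single slides, the fall at 0.01 μg EE2/L ranged from -5.17 to -2.65 for he2, from -3.52 to -1.83 for ADAR and from -2.89 to -2.10 for cyp2m1. Each of the 4 slides held arrays of all 5 groups. These ranges are a description, since no array at 0.01 μg EE2/L reached the controls and no slide could differ in direction.

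**Figure D4:**
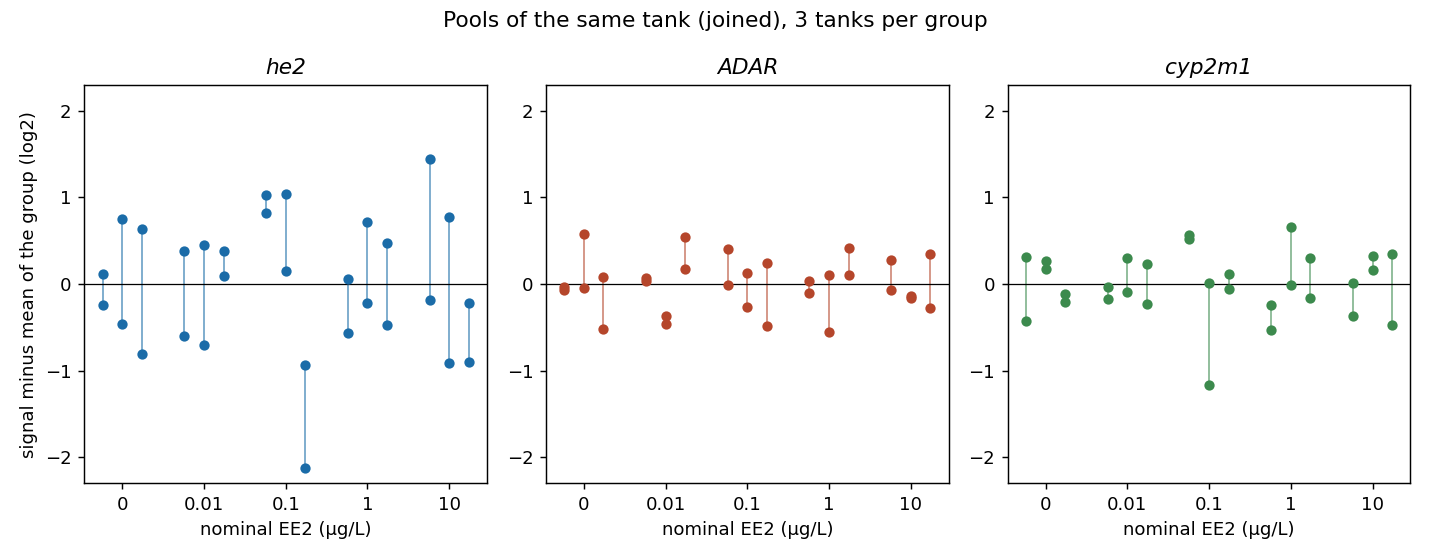
Normalised signal of each pool minus the mean of its group (log2) against the nominal EE2 concentration, with the 2 pools of a tank joined by a line and 3 tanks per group. The pools of tank 3 at 0.1 μg EE2/L are the lowest for he2, and the lower pool of tank 2 at 0.1 μg EE2/L is the lowest for cyp2m1. Tanks follow the labels of the scanner arrays. The tank of 6 of the 30 pools is uncertain, among them replicates 1 and 6 of 0.1 μg EE2/L.

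The arrays also differed in brightness, with a 75th percentile of the processed signal between 359 and 1238. After removal of group means, the correlation of each gene with it over the 30 arrays was -0.04 for he2, 0.11 for ADAR and 0.06 for cyp2m1 (Pearson's r, 3 relations). Spearman's rho was 0.03, 0.19 and 0.05. The permutation p of r within groups was 0.86, 0.60 and 0.76, or 0.859 for each after adjustment, and the adjusted permutation p of rho was 0.889 for each. With the 2 arrays of most extreme brightness dropped, r became -0.03 for he2, 0.14 for ADAR and -0.03 for cyp2m1.

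The 3 genes resembled each other across the whole set of arrays more than within groups. Over the 30 arrays, Pearson's r was 0.97 between he2 and ADAR, 0.95 between ADAR and cyp2m1 and 0.90 between he2 and cyp2m1. With the group means removed, r was 0.38, 0.05 and -0.03 for the same pairs. The first values mostly describe the common fall from the control and, with arrays shared, carry no test. The spread within groups was widest for he2, with a residual SD of 0.83, which 12.7% of all probes exceeded, against 0.33 for ADAR and 0.41 for cyp2m1, which 74.0% and 57.8% exceeded.

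The probes most like each gene were sought by Pearson's r over the 30 arrays among 53081 probes that were well above background on at least 6 arrays. They are given by the names of the array design, since the files give no gene for them. For he2 the closest was CUST_2321_PI425536763 (r = 0.98), whose mean was 14.69 in the control, 6.74 at 0.1 and 2.74 at 1 μg EE2/L, followed by TC120282, TC122809, TC103417 and CUST_27381_PI425536763. For ADAR the closest was TC102176 (r = 0.99), which went from 8.90 in the control to 4.81 at 0.1 and 4.20 at 10 μg EE2/L, followed by CUST_7700_PI425536763, CUST_9312_PI425536763, TC101387 and TC111389. For cyp2m1 the closest was TC103642 (r = 0.99), followed by TC103240, CUST_18587_PI425536763, CUST_28_PI425708691 and TC121284. The mean of TC103642 was 12.35 in the control, 7.29 at 0.1 and 8.34 at 10 μg EE2/L. The pattern of cyp2m1 was the least common of the 3, with 26 probes at r above 0.95, against 121 for he2 and 143 for ADAR.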

How the data were processed

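The authors read the arrays with Agilent Feature Extraction 10.7.3.1, which subtracts a background, and the deposited scanner files hold the processed signal as an intensity that was not normalised between arrays, with marks for spots well above background, saturated or outlying. The authors also deposited log2 values, quantile normalised over the 30 arrays, which were used here only as an alternative. The submitters' processing notes name R 2.15.3.

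Control spots were dropped, as were outlying spots of probes with another usable spot. The processed signals of each probe were averaged, and their log2 values quantile normalised. One mean per concentration was fitted to all 30 arrays with limma 3.58.1 in R 4.3.3, followed by eBayes, with Benjamini-Hochberg adjustment over 60195 probes within a contrast and a threshold of 0.05. Tanks and slides were compared by moderated F tests, and brightness by 1e+05 permutations within groups. Python 3.11.15 with pandas 2.3.3, numpy 2.4.6 and matplotlib 3.10.9 read the files and drew the plots. Precision is limited by the 6 arrays per group, which come from only 3 tanks. The SE and the intervals treat the 2 pools of a tank as independent.

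The genes, lists and tests were chosen with earlier results of these data known. The named probes are the 3 genes and, for each, the 5 probes with the highest correlation over the arrays. In simulated data for 10 against 1 μg EE2/L over 60195 probes, 49 of 100 probes changed by 1 and 92 of 100 changed by 3 on the log2 scale were found, with 5 false calls. These probes were changed together, with independent normal noise and no floor. The shares therefore do not give the chance of finding a single changed gene, or one at the background such as he2. Same-numbered replicates of different groups did not deviate together (60 pairs, r from -0.46 to 0.43, median 0.02), so no pairing was used. The alternatives covered scaling, background correction, filters, a floor, array weights, slides, tanks, a replicate block and leaving out arrays. The sequences of the probes and their positions in the genome were not used here.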

Additional observations from a re-analysis of the deposited data

Results flagged for a closer look

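The signal of cyp2m1 on replicate 4 of 0.1 μg EE2/L was 5.38 (log2). Its gap to the nearest of the other 5 arrays of the group was 0.642 of the whole range of the group, above the critical value of Dixon's test for 6 samples. It was the only array to stand apart in this way in 15 groups of 6 arrays, 5 groups for each gene, and chance alone marks about 1 in 20 such groups. Without this array the difference of cyp2m1 from the control at 0.1 μg EE2/L was -4.91, against -5.14 with it.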

How the results depend on the processing

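The contrasts with the control chose the genes or share controls with those that did, so that their direction is a description. The falls of all 3 genes from the control kept their direction under each alternative tried, 302 of 312 values staying within the spread between replicates. Part of the 302 could not move. Tank means, tank or replicate blocks, only the groups compared and dim probes left out keep the group means by design. The 10 values outside that spread came from 2 settings. With normexp background correction, run on median spot signals since the files used here hold no mean signals, the differences from the control, in order of concentration from 0.1 μg EE2/L upwards, were -6.33, -6.82 and -6.77 for he2, -5.21, -5.35 and -5.55 for ADAR and -4.40, -4.07 and -3.86 for cyp2m1. With signals raised to a floor at the lowest value well above background, he2 differed by -9.22 at 1 μg EE2/L. Signal over background limits what can be shown for he2 at 1 and 10 μg EE2/L.

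Between 10 and 1 μg EE2/L no alternative took a gene past the threshold. The sign of he2 turned with the floor (-0.43), with array weights (-0.14) and without replicate 2 or replicate 4 of 10 μg EE2/L (-0.16 and -0.03), and leaving out 1 array gave values from -0.16 to 0.31. The number of probes called for 10 against 1 μg EE2/L was 2. It was 1 with 75th percentile scaling, normexp, dim probes left out, the floor, the slide block and the tank as a random block, 0 with tank means, 2229 with array weights, and 5 both without the arrays with a dim middle and with brightness as a covariate (the last pair was chosen after seeing the data). Leaving out 1 array gave 0 to 103. For 0.01 against control, 4764 probes were called, against 12798 with array weights, 2579 with tank means, 2862 with only the groups compared and 2923 to 7374 with 1 array left out, the extremes being without control replicate 3 and control replicate 6, and 3066 without replicate 4 of 0.01 μg EE2/L. For 0.1 against control, 16346 were called, against 10385 with only the groups compared.

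No pairing by replicate number was used. With the replicate block the members' differences were equal to those without it (he2 -3.83 at 0.01 μg EE2/L). This was fixed by the design, since each group holds each replicate number once, and says nothing about pairing. With the block, 4783 probes were called for 0.01 against control. The relation to brightness changed sign for ADAR with 75th percentile scaling (r = -0.0075) and the authors' log2 values (-0.062), and for cyp2m1 with 75th percentile scaling (-0.066) and normexp (-0.127). These alternatives were chosen after seeing the data, and none passed the threshold. With the authors' log2 values, and so with the exchanged labels, tanks had an adjusted p of 0.959 for he2, 0.690 for ADAR and 0.722 for cyp2m1 in limma. The cause of these changes was not tested.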
